A study of Mus musculus with 7 samples.

Results

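The genes described here are those of coenzyme Q synthesis and of the coenzyme Q binding proteins COQ10A and COQ10B, 10 genes (Coq2, Coq3, Coq4, Coq5, Coq6, Coq7, Coq8a, Coq9, Coq10a and Coq10b) of the 45706 in the deposited tables. They were taken from a named list, and the list was chosen by someone who knew the ergothioneine against untreated expression values of these same mice. Those values are therefore given as a description, and the fold changes and adjusted p-values of the 10 genes are not independent support for any change. RNA was sequenced from the kidneys of 7 male mice aged 6 months. In 4 of them L-ergothioneine, a sulfur-containing histidine derivative taken up from the diet, was given in the drinking water at 16 mg/kg/day, and the other 3 were untreated. All 7 mice, untreated ones included, were Slc7a9-/-, which lack the light subunit of the renal cystine transporter and serve as a model of the stone disease cystinuria, so no wild-type kidney is compared here. The labels number the mice but do not say whether they shared litters or handling. The p-values therefore set the difference between the groups against the spread between these samples only.

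Coenzyme Q (ubiquinone) is a lipid with a long isoprenoid tail that carries electrons in the inner mitochondrial membrane from complexes I and II and several dehydrogenases to complex III, and its reduced form is an antioxidant in membranes. Its ring is joined to the tail by COQ2 and then modified by a membrane-bound assembly of COQ3 to COQ7 and COQ9, kept working by the atypical kinases COQ8A and COQ8B. COQ10A and COQ10B are paralogs that bind the finished molecule and, as known from the yeast protein Coq10, are needed for its use in respiration rather than for the chemistry of the ring. In humans, defects in COQ2, COQ6 and COQ8B cause kidney disease of the podocyte, and in mice a Pdss2 mutation does so.

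Libraries held 14843899 to 19791575 counts. All 15 kidney segment and endothelial markers were present, with a summed level of 20600 to 22061 CPM in ergothioneine kidneys and 20249 to 23055 CPM in untreated kidneys. CPM are the counts of a gene scaled to a fixed library size after TMM scaling, and the summed levels are in the same unit. Slc7a9 itself had 6.76, 8.40, 9.47 and 5.62 CPM in ergothioneine kidneys, against 5.55, 6.37 and 6.73 CPM in untreated kidneys, a log2 fold change of 0.28 ± 0.17 (SE; edgeR, Benjamini-Hochberg adjusted p = 0.378). Because all samples share the genotype, that gene does not check the group labels. In whole-kidney RNA, fewer cells of a type and less RNA per cell cannot be told apart.

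Coq10b was the gene of the set that differed most, at 0.52 of its untreated level, and Coq8a was the only other one past the threshold in the test on counts, in the opposite direction. The threshold was an adjusted p of 0.05 in edgeR's quasi-likelihood test with Benjamini-Hochberg adjustment over all 15399 genes tested. Of the 10 genes, all of which passed the filter on low counts, 1 was higher in ergothioneine kidneys, 1 was lower and 8 did not pass. Over all genes tested 7.16% passed, 3.58% in the higher and 3.57% in the lower direction. The median log2 fold change of the 10 genes was -0.02, beside -0.00 over all genes tested. Of the 10, 3 (Coq10b, Coq8a and Coq5) had groups whose CPM did not overlap, which held for 18.6% of all genes tested. Since the contrast chose the set, nothing is read from these shares.

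**Figure D1:**
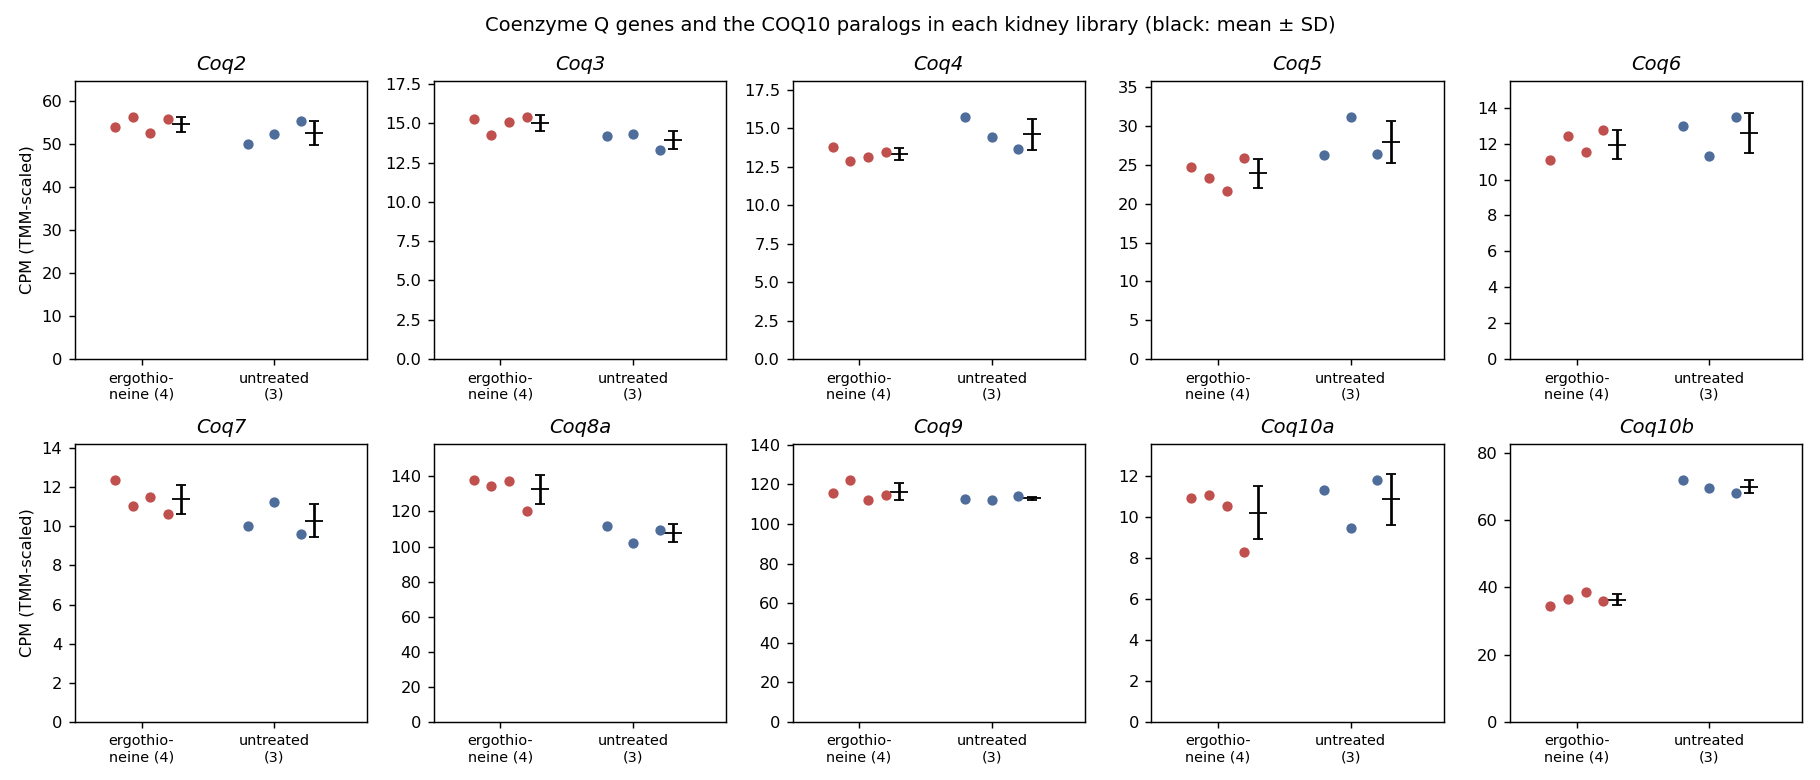
CPM of each of the 10 genes in each kidney library, with the 4 ergothioneine libraries in red on the left and the 3 untreated libraries in blue on the right of each panel, and the group mean ± SD in black; each panel starts at 0 and has its own scale. Coq10b lies between 34.4 and 38.6 CPM in ergothioneine kidneys and between 68.2 and 72.0 CPM in untreated kidneys, while the groups of 7 of the 10 genes overlap.

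Coq10b (ENSMUSG00000025981), which encodes one of the 2 coenzyme Q binding paralogs, lies on the plus strand of GRCm38 chromosome 1 from 55052770 to 55072702. It had 34.4, 36.5, 38.6 and 36.0 CPM in ergothioneine kidneys, against 72.0, 69.6 and 68.2 CPM in untreated kidneys. The highest ergothioneine kidney stood far below the lowest untreated kidney, and within each group the values lay close together. These levels rest on 605 to 722 counts per ergothioneine library and 1038 to 1270 counts per untreated library. The means were 36.4 ± 1.74 CPM in ergothioneine kidneys (SD, n = 4) and 69.9 ± 1.93 CPM in untreated kidneys (SD, n = 3). The log2 fold change was -0.94 ± 0.06 (SE), that is, the level fell by 48.0% (edgeR, Benjamini-Hochberg adjusted p = 7.36e-08). Among the 15399 genes tested, 152 (0.987%), Coq10b included, had a log2 fold change at least as low, and Coq10b stood at place 7 when genes were ordered by p. Under all 19 alternative settings tried, the value stayed past the threshold, at log2 fold changes between -1.31 and -0.91. The values of -1.31 and -1.28 came from the deposited levels per transcript length. On those scales the median of all genes lay at -0.37 and -0.31.

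Coq10a (ENSMUSG00000039914; chromosome 10, 128363100 to 128368997, minus strand), the paralog, did not pass the threshold. It had 10.9, 11.1, 10.5 and 8.29 CPM in ergothioneine kidneys and 11.3, 9.45 and 11.8 CPM in untreated kidneys, and the groups overlapped. Its log2 fold change was -0.09 ± 0.13 (SE; edgeR, Benjamini-Hochberg adjusted p = 0.753). Because a ratio of 2 genes within a library does not depend on how libraries are scaled, the paralogs were also set against each other. The ratio of Coq10b to Coq10a counts was 3.15, 3.30, 3.67 and 4.34 in ergothioneine kidneys, against 6.35, 7.36 and 5.78 in untreated kidneys. Every ergothioneine kidney had a lower ratio than every untreated kidney. The mean log2 ratio was 1.84 ± 0.21 in ergothioneine kidneys (SD, n = 4) and 2.69 ± 0.18 in untreated kidneys (SD, n = 3), a difference of -0.85 on the counts and of -0.85 on the deposited TPM. TPM is the level per transcript length that the authors deposited. With Coq9 in the place of Coq10a, the ratio of counts was 0.296, 0.299, 0.344 and 0.313 in ergothioneine kidneys and 0.639, 0.619 and 0.598 in untreated kidneys. Neither ratio was tested, because the contrast chose the genes.

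**Figure D2:**
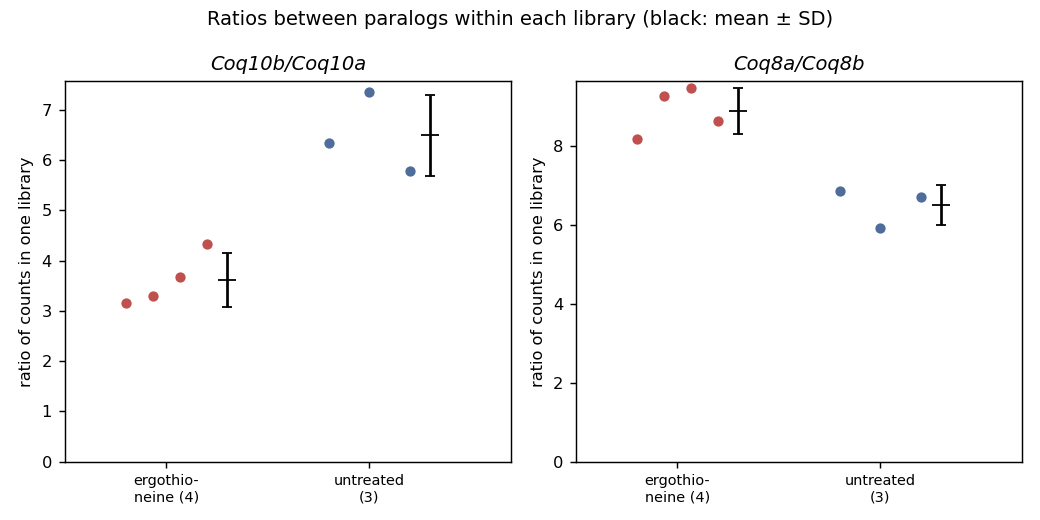
Ratio of the counts of 2 paralogs in each library, Coq10b over Coq10a on the left and Coq8a over Coq8b on the right, with points for single libraries (4 ergothioneine in red, 3 untreated in blue), mean ± SD in black and axes that start at 0. Coq10b over Coq10a reaches at most 4.34 in ergothioneine kidneys and is at least 5.78 in untreated kidneys; Coq8a over Coq8b is at least 8.18 in ergothioneine kidneys and at most 6.87 in untreated kidneys.

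The upstream sequences of the paralogs are shown because Coq10b and Coq10a differ in their values while their proteins are related. Promoter windows came from the RefSeq table of GRCm38.p6, with 250 bases before and 50 after each start. Of the 10 genes, 9 had at least 1 window, and Coq5 had none. Below are the 250 bases before the start of Coq10b (chr1:55052520-55052769, plus strand) and before the Coq10a start nearest to the annotated 5′ end of its gene (chr10:128368981-128369230, minus strand), 5′ to 3′. Capitals mark an E-box (CACGTG) and a D-box (TTATGTAA, here on the opposite strand as TTACATAA).
Coq10b: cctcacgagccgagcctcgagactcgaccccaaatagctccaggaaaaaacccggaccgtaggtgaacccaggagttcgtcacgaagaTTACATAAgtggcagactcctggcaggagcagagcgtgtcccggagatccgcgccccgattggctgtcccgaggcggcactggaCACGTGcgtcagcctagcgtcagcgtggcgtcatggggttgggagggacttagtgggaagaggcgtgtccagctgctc
Coq10a: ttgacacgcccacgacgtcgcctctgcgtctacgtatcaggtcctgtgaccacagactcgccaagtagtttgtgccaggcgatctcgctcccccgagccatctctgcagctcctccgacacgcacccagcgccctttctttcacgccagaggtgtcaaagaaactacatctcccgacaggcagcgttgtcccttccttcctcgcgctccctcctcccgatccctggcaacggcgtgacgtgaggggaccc
In the Coq10b window the E-box began 78 bases before the start and the D-box 162 bases before it, and the 2 matches do not overlap. CCAAT boxes on the opposite strand began 104 bases before and 13 bases after the start. A search on both strands covered 9 motifs: the E-box and the D-box as above, a cyclic AMP response element (TGACGTCA), a pair of heat shock element units (GAANNTTC), an antioxidant response element core (TGACNNNGC), an NRF1 site core (TGCGCATGC), an ERR element (TNAAGGTCA), a GC box (GGGCGG) and a CCAAT box (CCAAT). Neither this Coq10a window nor the second RefSeq window of Coq10a held any of the 9. Of all 32851 windows, 7.15% held an E-box and 0.938% a D-box, and 8 windows (0.0244%) held both, a pair that was counted after the Coq10b match had been seen. Among the other genes of the set, Coq4 had an E-box 56 bases, Coq9 an antioxidant response element core 45 bases and Coq2 an NRF1 site core 50 bases before the start. Such cores occurred in 12.4% of all windows for the antioxidant response element and in 1.52% for NRF1. The Coq8a, Coq3, Coq6 and Coq7 windows held only GC or CCAAT boxes, which occurred in 35.7% and 37.4% of all windows. Of the remaining motifs, the cyclic AMP response element occurred in 1.79%, the heat shock element units in 7.86% and the ERR element in 1.28% of all windows. None of them occurred in the windows of the set, which do not cover Coq5. A match is a run of letters and was not tested as a binding site.

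Coq8a (ENSMUSG00000026489; chromosome 1, 180165238 to 180199602, minus strand) encodes the atypical kinase that supports the synthesis assembly, and it was higher in ergothioneine kidneys in the counts but not on the deposited TPM scale. It had 138, 134, 138 and 120 CPM in ergothioneine kidneys, against 112, 102 and 109 CPM in untreated kidneys. All 4 ergothioneine kidneys were above all 3 untreated ones, with ergothioneine replicate 4 the nearest to them. Mean levels were 133 ± 8.29 CPM in ergothioneine kidneys (SD, n = 4) and 108 ± 5.09 CPM in untreated kidneys (SD, n = 3), a log2 fold change of 0.30 ± 0.06 (SE) or 1.23-fold (edgeR, Benjamini-Hochberg adjusted p = 0.00647). Of all genes tested, 1489 (9.67%) had a log2 fold change at least as high. In the deposited TPM table Coq8a had 44.7, 33.4, 41.7 and 29.0 in ergothioneine kidneys and 54.6, 37.1 and 28.6 in untreated kidneys, and there the groups overlapped. The log2 fold change was -0.08 on log2(TPM + 1) (limma, Benjamini-Hochberg adjusted p = 0.761), a scale on which the median of all genes lay at -0.31. Short non-coding RNA took 12.2% and 16.2% of all TPM in untreated replicates 1 and 2, and 37.5% to 48.7% in the other 5 libraries. After removal of those RNAs and rescaling, the log2 fold change was 0.30 with an adjusted p of 0.334 (limma, Benjamini-Hochberg). Against untreated replicate 3 alone, the untreated library with a share of short RNA like that of the ergothioneine libraries, it was 0.28 with an adjusted p of 0.0984 (edgeR, Benjamini-Hochberg).

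Coq8b, the second kinase of the pair and a podocyte disease gene in humans, had 15.0 ± 1.29 CPM in ergothioneine kidneys (SD, n = 4) and 16.6 ± 0.53 CPM in untreated kidneys (SD, n = 3). Its log2 fold change was -0.15 ± 0.10 (SE; edgeR, Benjamini-Hochberg adjusted p = 0.420). The ratio of Coq8a to Coq8b counts was 8.18, 9.25, 9.46 and 8.63 in ergothioneine kidneys, against 6.87, 5.92 and 6.69 in untreated kidneys, with no overlap. The difference in the mean log2 ratio was 0.45 on the counts and 0.36 on TPM. With Coq9 in the place of Coq8b, the ratio of counts was 1.19, 1.10, 1.23 and 1.05 in ergothioneine kidneys and 0.992, 0.908 and 0.960 in untreated kidneys, again without overlap, whereas the same ratio of TPM overlapped between the groups.

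Coq2, Coq3 and Coq5, for attachment of the tail and methylation of the ring, did not pass the threshold. COQ2 attaches the isoprenoid tail, and Coq2 (chromosome 5, 100654723 to 100675140, minus strand) had 53.8, 56.1, 52.4 and 55.7 CPM in ergothioneine kidneys and 49.9, 52.2 and 55.3 CPM in untreated kidneys, a log2 fold change of 0.06 ± 0.06 (SE; edgeR, Benjamini-Hochberg adjusted p = 0.690). The methyltransferase COQ3 acts on oxygens of the ring. Coq3 (chromosome 4, 21879673 to 21912162, plus strand) had 15.3, 14.3, 15.1 and 15.4 CPM in ergothioneine kidneys and 14.2, 14.3 and 13.3 CPM in untreated kidneys, which touched at 14.3. Coq5 (ENSMUSG00000041733; chromosome 5, 115279666 to 115296972, plus strand), for the methyltransferase that acts on a ring carbon, had 24.8, 23.3, 21.7 and 25.9 CPM in ergothioneine kidneys and 26.4, 31.2 and 26.4 CPM in untreated kidneys. The 2 groups of Coq5 did not overlap, but ergothioneine replicate 4 came close to untreated replicates 1 and 3. Its log2 fold change was -0.22 ± 0.09 (SE; edgeR, Benjamini-Hochberg adjusted p = 0.143), so it did not pass. Of the 8 genes that did not pass, Coq5 was the only one with an unadjusted p under 0.05.

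The ring hydroxylases COQ6 and COQ7 and their partners gave small differences in either direction. Coq6 (chromosome 12, 84361657 to 84373796, plus strand) had 11.1, 12.4, 11.5 and 12.8 CPM in ergothioneine kidneys and 13.0, 11.3 and 13.5 CPM in untreated kidneys. Coq7 (chromosome 7, 118509659 to 118533356, minus strand) had 12.4, 11.0, 11.5 and 10.6 CPM in ergothioneine kidneys and 10.0, 11.3 and 9.62 CPM in untreated kidneys. In both genes the groups overlapped. COQ9 is a lipid-binding partner of COQ7, and Coq9 (chromosome 8, 94838321 to 94854895, plus strand) had 116, 122, 112 and 115 CPM in ergothioneine kidneys and 113, 112 and 114 CPM in untreated kidneys. COQ4, a component that the assembly needs, is encoded by Coq4 (chromosome 2, 29787493 to 29797935, plus strand), which had 13.7, 12.9, 13.1 and 13.5 CPM in ergothioneine kidneys and 15.7, 14.4 and 13.7 CPM in untreated kidneys. Coq9 groups overlapped, and Coq4 groups met where the highest ergothioneine and the lowest untreated kidney had 13.7 CPM each. Log2 fold changes were 0.11 ± 0.09 for Coq3, -0.13 ± 0.10 for Coq4, -0.08 ± 0.11 for Coq6, 0.14 ± 0.11 for Coq7 and 0.04 ± 0.05 for Coq9 (SE). Over the 8 genes that did not pass, log2 fold changes ran between -0.22 and 0.14, with adjusted p-values of 0.143 to 0.759 (edgeR, Benjamini-Hochberg) and standard errors of 0.05 to 0.13. A p above the threshold does not show that their levels were alike.

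**Figure D3:**
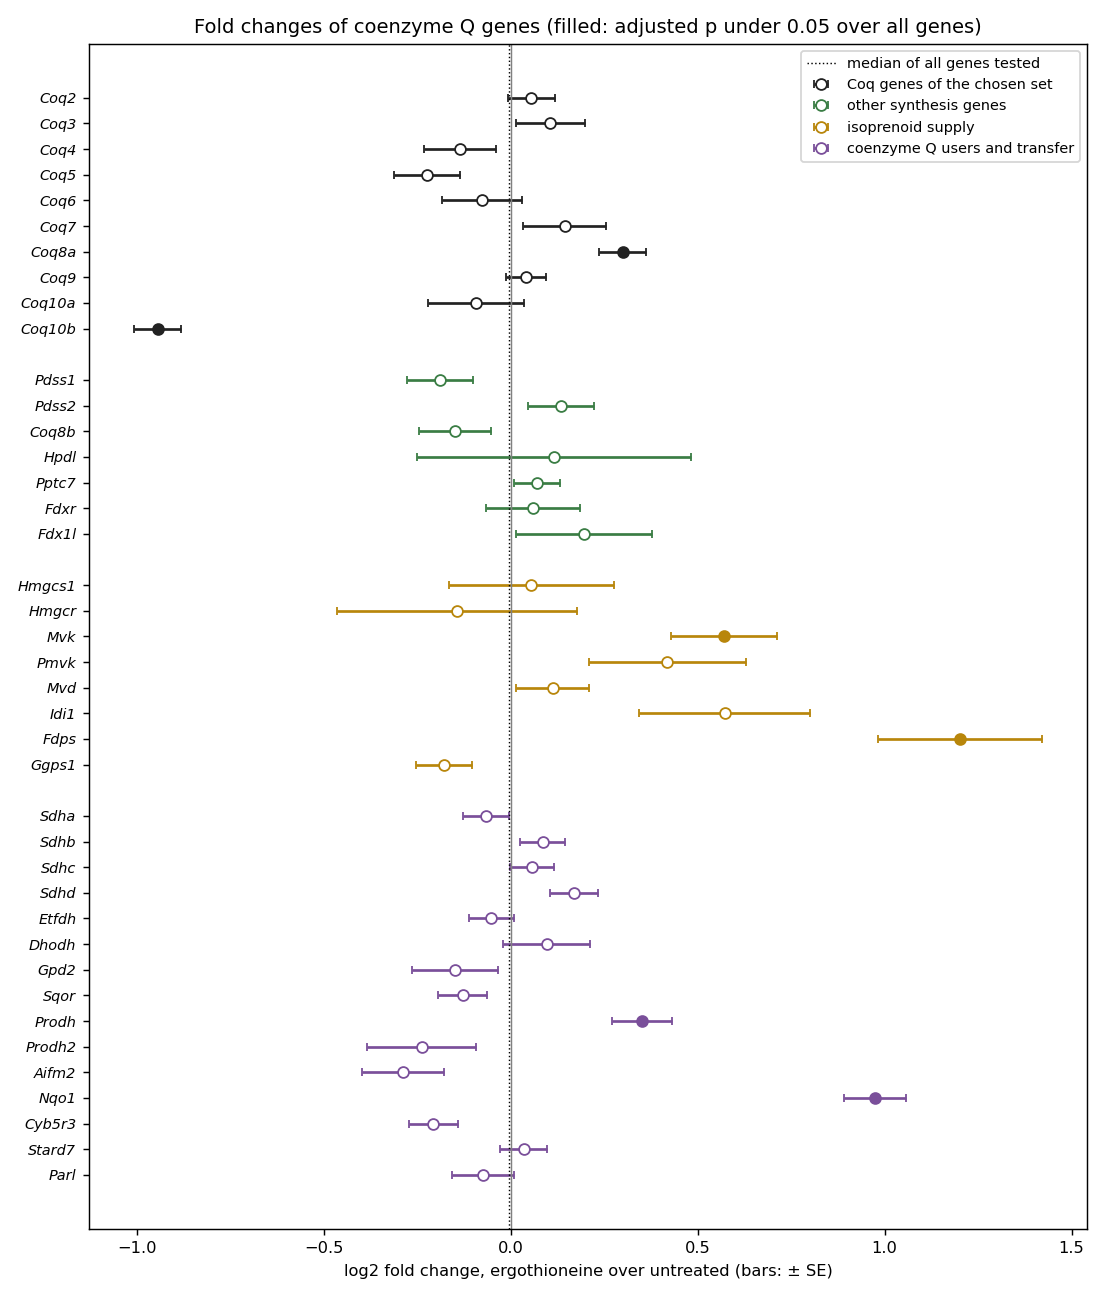
Log2 fold change of ergothioneine over untreated kidneys (points) ± SE (bars) for the 10 genes of the set and for the 30 tested genes of 3 further lists; filled points have an edgeR adjusted p under 0.05 over all genes, the grey line marks 0 and the dotted line the median of all genes tested (-0.00). Coq10b stands at -0.94 and Coq8a at 0.30 (-0.08 on log2(TPM + 1)), and the other 8 genes of the set lie between -0.22 and 0.14.

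Levels of different genes can be compared per transcript length, in TPM, and the place of Coq10b in that order differed between the groups. Among the 10 genes in ergothioneine kidneys, Coq9 had the highest level at 78.2 ± 2.39 TPM, followed by Coq8a at 37.2 ± 7.26, Coq2 at 34.8 ± 1.46 and Coq10b at 22.3 ± 1.60 TPM (SD, n = 4). In untreated kidneys Coq9 had 99.0 ± 20.8 TPM, followed by Coq10b at 56.7 ± 13.9, Coq2 at 43.7 ± 8.35 and Coq8a at 40.1 ± 13.3 TPM (SD, n = 3). Coq10b thus held place 4 in ergothioneine kidneys and place 2 in untreated kidneys, and the same places after rescaling without short non-coding RNA. Within libraries, Coq2 exceeded Coq10b in 4 of 4 ergothioneine kidneys, and Coq10b exceeded Coq2 in 3 of 3 untreated kidneys. Coq8a and Coq2 could not be ordered: Coq8a was above Coq2 in 2 of 4 ergothioneine kidneys, and Coq2 was above Coq8a in 2 of 3 untreated kidneys.

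The lower places were held by Coq7 (14.8 TPM), Coq5 (12.2), Coq6 (9.43), Coq4 (8.55), Coq3 (6.08) and Coq10a (4.01) in ergothioneine kidneys, as mean TPM. In untreated kidneys the mean TPM were 18.0 for Coq7, 18.8 for Coq5, 12.0 for Coq6, 11.8 for Coq4, 6.93 for Coq3 and 5.54 for Coq10a. Coq7 was above Coq5 in 4 of 4 ergothioneine kidneys, and Coq5 was above Coq7 in 3 of 3 untreated kidneys. Coq6 and Coq4 did not keep 1 order within either group, Coq6 being above in 3 of 4 ergothioneine and in 2 of 3 untreated kidneys. All other neighbours in each order kept that order in every library of the group, although the group ranges overlapped for Coq7 and Coq5 in ergothioneine kidneys and for most neighbours from Coq10b downwards in untreated kidneys. Since the shares of short RNA were unequal, TPM are used here for the order of genes within a group.

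**Figure D4:**
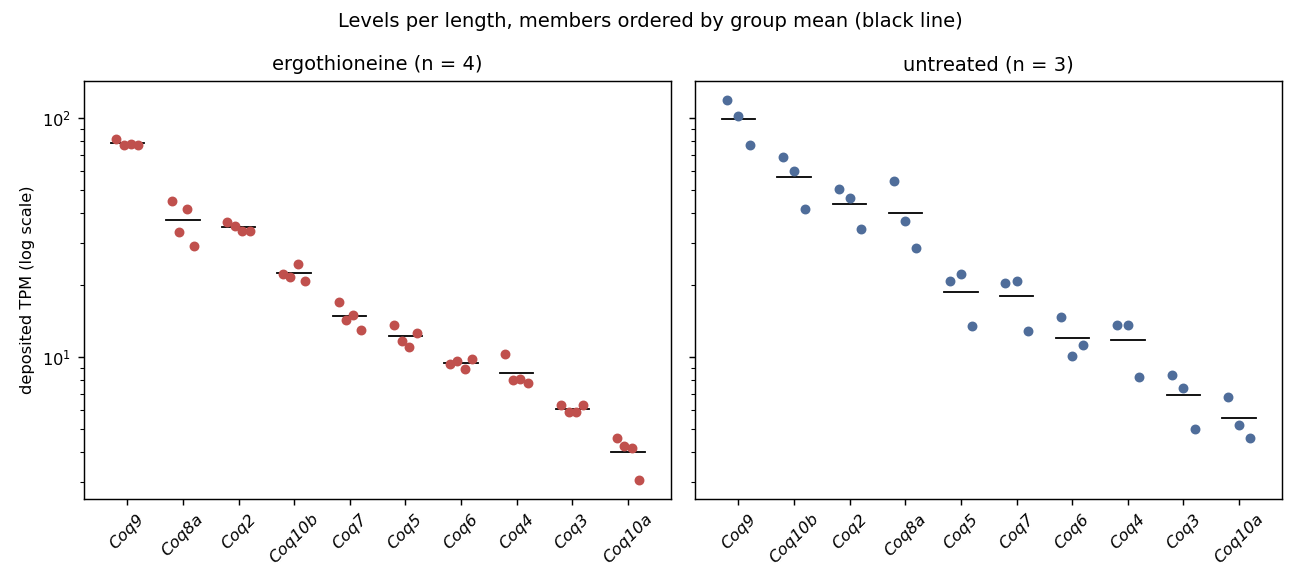
Deposited TPM of the 10 genes on a logarithmic axis, ordered by group mean, with ergothioneine kidneys (n = 4) in the left panel and untreated kidneys (n = 3) in the right panel; points are libraries and black lines are group means. Coq9 is the highest and Coq10a the lowest gene in both panels, and Coq10b is at place 4 among ergothioneine kidneys and at place 2 among untreated kidneys.

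The further genes of the pathway were counted in 3 lists, which were also drawn up with earlier results of these data known. Of their 32 symbols 31 matched a gene and 30 of these were tested. Over the 3 lists, 4 of the 30 were higher in ergothioneine kidneys and 0 were lower, beside 3.58% and 3.57% of all genes tested. With DESeq2 the 30 also gave 4 higher and 0 lower, and at an unadjusted p under 0.05 edgeR gave 5 higher and 4 lower. Their median log2 fold change was 0.06, and 7 of the 30 had groups that did not overlap, beside 18.6% of all genes tested. Without untreated replicate 3, 1 of the 30 passed.

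Of the other genes for synthesis, none of the 7 tested passed. Pdss1 and Pdss2 encode the subunits of the enzyme that makes the tail. Pdss1 had 19.1 ± 1.11 CPM in ergothioneine kidneys (SD, n = 4) and 21.8 ± 1.84 CPM in untreated kidneys (SD, n = 3), a log2 fold change of -0.19 ± 0.09 (SE; edgeR, Benjamini-Hochberg adjusted p = 0.232), without overlap. Pdss2 had 21.0 ± 1.20 CPM in ergothioneine kidneys (SD, n = 4) and 19.1 ± 1.42 CPM in untreated kidneys (SD, n = 3), a log2 fold change of 0.14 ± 0.09 (SE; edgeR, Benjamini-Hochberg adjusted p = 0.426). Log2 fold changes over the list lay between -0.19 and 0.20. For this list of 7, edgeR gave 1 gene (Pdss1) with an unadjusted p under 0.05, and DESeq2 called 0.

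Of the 8 genes that supply isoprenoid units, which also feed cholesterol synthesis, 2 were higher and none was lower. Mvk, the mevalonate kinase, had 10.8, 11.0, 11.2 and 14.7 CPM in ergothioneine kidneys, against 8.56, 8.91 and 6.61 CPM in untreated kidneys, a log2 fold change of 0.57 ± 0.14 (SE; edgeR, Benjamini-Hochberg adjusted p = 0.0191). Fdps, the farnesyl diphosphate synthase, had 16.5, 23.9, 16.1 and 26.5 CPM in ergothioneine kidneys, against 8.39, 10.9 and 7.89 CPM in untreated kidneys, a log2 fold change of 1.20 ± 0.22 (SE; edgeR, Benjamini-Hochberg adjusted p = 0.0151). All ergothioneine kidneys were above all untreated ones in both genes, but the ergothioneine values of Fdps were spread over a wide range. Of the 19 alternatives, Mvk kept its call under 13 and Fdps under 15. Among the settings where it was lost, Mvk did not pass without untreated replicate 3 (adjusted p = 0.0931) or without ergothioneine replicate 4 (0.0547; edgeR, Benjamini-Hochberg). Mvk also did not pass on TPM, as deposited or rescaled without short non-coding RNA. Fdps did not pass without untreated replicate 1 (0.0907) or 3 (0.0864), or with the range of the library name numbers as a block (0.0747; edgeR, Benjamini-Hochberg).

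Of the 15 tested genes for enzymes that reduce or oxidise coenzyme Q or for its transfer, 2 were higher and none was lower. Nqo1, a quinone reductase of the cytosol, had 84.3, 96.6, 89.0 and 90.4 CPM in ergothioneine kidneys, against 45.1, 52.8 and 39.8 CPM in untreated kidneys. Its log2 fold change was 0.97 ± 0.08 (SE; edgeR, Benjamini-Hochberg adjusted p = 3.78e-06), and it kept its call under all 19 alternatives. Prodh, the proline dehydrogenase that passes electrons to coenzyme Q, had 180, 195, 171 and 150 CPM in ergothioneine kidneys, against 148, 130 and 131 CPM in untreated kidneys, where ergothioneine replicate 4 and untreated replicate 1 came close. Its log2 fold change was 0.35 ± 0.08 (SE; edgeR, Benjamini-Hochberg adjusted p = 0.0165) and -0.06 on log2(TPM + 1), and the call was lost without untreated replicate 2 (adjusted p = 0.0872) or 3 (0.0830) and without ergothioneine replicate 1 (0.0539). Prodh kept its call under 12 of the 19 alternatives, and it did not pass on TPM, as deposited or rescaled without short non-coding RNA. The 13 other genes of the list did not pass, and the list's log2 fold changes lay between -0.29 and 0.97 with a median of -0.05.

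Genes near to Coq10b in profile were taken, among protein-coding genes, by the smallest root mean square difference in log2(CPM + 0.1), each gene centred over the 7 libraries. Those described are Nat8f3, at a difference of 0.0985, Ak4, a mitochondrial adenylate kinase, at 0.110, Olfm4, a secreted glycoprotein, at 0.127, and Adgrb3, an adhesion G protein-coupled receptor, at 0.137. These 4 genes were lower in every ergothioneine kidney than in every untreated kidney, which the measure itself favours. Ak4 averaged 342 ± 43.7 CPM in ergothioneine kidneys (SD, n = 4) and 615 ± 43.4 CPM in untreated kidneys (SD, n = 3). Log2 fold changes were -0.95 for Nat8f3, -0.85 for Ak4, -0.77 for Olfm4 and -1.10 for Adgrb3, beside -0.94 for Coq10b. The libraries share their depth and scaling across these genes, so the likeness is a description.

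**Figure D5:**
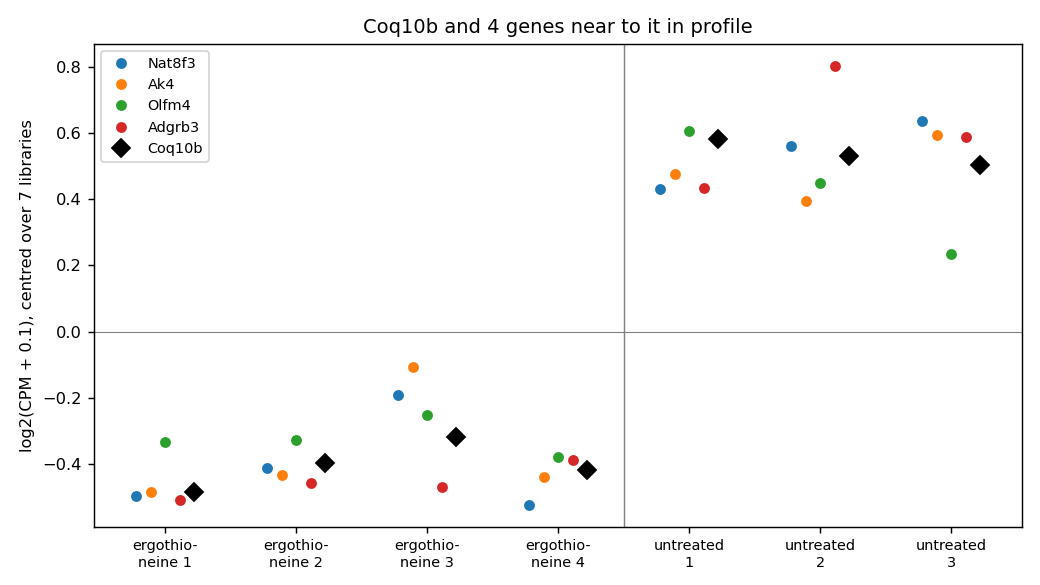
Level of Coq10b (black diamonds) and of 4 genes near to it in profile (coloured points) in each library, as log2(CPM + 0.1) centred over the 7 libraries, with the 4 ergothioneine kidneys to the left of the vertical line and the 3 untreated kidneys to its right. Coq10b lies between -0.48 and -0.32 in ergothioneine kidneys and between 0.50 and 0.58 in untreated kidneys; within groups the 5 genes do not keep 1 order.

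Genes next to Coq10b on chromosome 1 did not pass the threshold. Within 50 kb, Hspd1, for the mitochondrial chaperonin HSP60, lies 5132 bases away on the opposite strand and had 321 ± 20.6 CPM in ergothioneine kidneys (SD, n = 4) and 366 ± 25.0 CPM in untreated kidneys (SD, n = 3). Its log2 fold change was -0.19 ± 0.07 (SE; edgeR, Benjamini-Hochberg adjusted p = 0.0952). Hspe1, for the HSP10 co-chaperonin, had a log2 fold change of -0.18 (adjusted p = 0.207), and Sf3b1, a splicing factor gene, one of -0.12 (adjusted p = 0.214; edgeR, Benjamini-Hochberg). A pseudogene inside Coq10b on the same strand, Gm17971, averaged 1.04 CPM in ergothioneine kidneys and 1.66 CPM in untreated kidneys. An unclassified transcript overlapping Coq10b by 343 bases on the opposite strand, E330011M16Rik, averaged 0.79 CPM in ergothioneine kidneys and 1.03 CPM in untreated kidneys. Deposited Coq10b counts were whole in all 7 libraries. Among the other genes of the set, Coq8a overlaps Cdc42bpa by 366 bases, Coq4 overlaps Trub2 by 1010 bases, Coq6 overlaps Fam161b by 177 bases and Coq9 overlaps Ciapin1 by 38 bases, each on the opposite strand. Cdc42bpa had a log2 fold change of 0.05 and Trub2 one of 0.04, while Ciapin1 was higher at 0.39 (edgeR, Benjamini-Hochberg adjusted p = 0.00702). The libraries were stranded, but the strand setting of the counting is not given in the sources used here.

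Markers of fat moved in the same direction as Coq10b. All 5 adipocyte and brown fat markers were lower in ergothioneine kidneys, and their summed level was 0.681 to 4.62 CPM in ergothioneine kidneys and 29.4 to 43.9 CPM in untreated kidneys. Ucp1, the uncoupling protein of brown fat, had 0, 0.607, 1.75 and 0.981 CPM in ergothioneine kidneys, against 17.3, 17.3 and 28.1 CPM in untreated kidneys. In the same order, Coq10b had 72.0, 69.6 and 68.2 CPM in these 3 untreated kidneys, and nothing is read from values this close together. Among leukocyte markers the sum was 16.2 to 22.5 CPM in ergothioneine kidneys and 24.1 to 30.0 CPM in untreated kidneys, almost all of it Ptprc, which was lower (log2 fold change -0.53; edgeR, Benjamini-Hochberg adjusted p = 0.00551). Muscle markers summed to 0.164 to 0.511 CPM in ergothioneine kidneys and 0.513 to 1.34 CPM in untreated kidneys, with 1 of 6 at 0 in every library. The part of fat or leukocyte RNA in the Coq10b and Coq8a values was not tested.

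The library names fall into 2 ranges of numbers, and the groups are spread unevenly over them. Names numbered 44 to 50 held 1 ergothioneine and 2 untreated kidneys, where log2 CPM differed by -1.04 for Coq10b and by 0.37 for Coq8a. Names numbered 14 to 23 held 3 ergothioneine kidneys and 1 untreated kidney, where the difference was -0.88 for Coq10b and 0.25 for Coq8a. With the name range as a block, the log2 fold change was -0.96 for Coq10b (adjusted p = 5.4e-07) and 0.31 for Coq8a (adjusted p = 0.0134; edgeR, Benjamini-Hochberg). Fdps differed by 0.78 in the range of 44 to 50 and by 1.46 in that of 14 to 23, and with the block it had a log2 fold change of 1.13 and did not pass (edgeR, Benjamini-Hochberg adjusted p = 0.0747). What the numbers stand for is not given in the labels.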

How the data were processed

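Frozen mouse kidney RNA was depleted of ribosomal RNA and made into stranded libraries with 10 cycles of amplification, per the labels' protocols. The deposited files give expected counts and TPM, each for 45706 Ensembl genes with 1 column per mouse. Per the submitters' processing notes, tools included STAR 2.7.10a, RSEM 1.3.1, Salmon 1.10.1, Subread 2.0.1 and DESeq2, with builds GRCm38 and mm10. What each did, the annotation and the strand setting are not stated in the labels. Of the deposited expected counts, 3.61% of values were not whole, so reads shared by similar genes were split. TPM are scaled to a fixed sum after division by length, so short RNAs weigh more there.

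Names and positions came from GENCODE M21 (GRCm38), which held 45143 of the genes. Rounded expected counts went into edgeR 4.0.16 under R 4.3.3 (filterByExpr, TMM, robust quasi-likelihood F test, Benjamini-Hochberg over 15399 genes, threshold 0.05). A standard error is the size of the log2 fold change over the root of its F value, with a median of 0.11. Depth was 14843899 to 19791575 counts per library. The script was tested on simulated data. The members and lists were chosen with earlier results of these data known. Named were all 10 members, Pdss1, Pdss2, Coq8b, further list genes past the threshold, and, of the 5 genes nearest to Coq10b, 4 (the other is not reported here); neighbours were taken within 50 kb, and motifs, Coq9 ratios and marker details were chosen afterwards. Alternatives were DESeq2 1.42.0, limma 3.58.1 (voom, and log2 TPM with pseudocounts 1 and 0.1, as deposited or rescaled without genes of short non-coding RNA), 2 other scalings, 2 other filters, leaving out each library, 2 blocks, and untreated replicate 3 alone, which was chosen after seeing the data. The list symbol Choldh matched no gene, since choline dehydrogenase has the symbol Chdh, and that gene was not analysed.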

Additional observations from a re-analysis of the deposited data

Results flagged for a closer look

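Mvk stood out for 1 library. Its CPM in ergothioneine replicate 4 was 14.7, while the other 3 ergothioneine kidneys had 10.8 to 11.2, a gap of 0.902 of the group's range, which is above Dixon's critical value for 4 samples. Among the 4 ergothioneine kidneys, 17 genes were checked in this way, and chance alone gives such a gap in about 1 of 20 groups. Without that kidney the log2 fold change was 0.46 (edgeR, Benjamini-Hochberg adjusted p = 0.0547).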

How the results depend on the processing

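Coq10b kept its direction and its call under all 19 alternatives, with log2 fold changes of -1.31 to -0.91 and adjusted p-values of 1.4e-30 to 0.00064, and Coq8a kept its call under 15. Leaving out each library in turn gave 692 to 1103 genes past the threshold (1102 with all libraries), 2 members each time, 1 to 4 of the other coenzyme Q genes and a Coq10b to Coq10a log2 ratio difference of -0.94 to -0.76. Against untreated replicate 3 alone, 569 genes, 1 member and 2 other coenzyme Q genes passed, the ratio difference was -0.69 and Coq2 turned to -0.019. On TPM rescaled without short non-coding RNA these counts were 272, 1 and 2, and Coq6 turned to 0.043. The cause was not tested.

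On log2(TPM + 1) and log2(TPM + 0.1) the median of all genes lay at -0.31 and -0.37, and 54 higher with 1484 lower and 53 higher with 1424 lower genes passed, against 552 higher and 550 lower on the counts. The following log2 fold changes turned negative on these 2 scales: Coq2 -0.30 and -0.31, Coq3 -0.14 and -0.15, Coq7 -0.24 and -0.25, Coq8a -0.077 and -0.078, Coq9 -0.32 and -0.32, Pdss2 -0.23 and -0.25, Prodh -0.060 and -0.060. Coq5 passed there, at -0.56 and -0.59 (limma, Benjamini-Hochberg adjusted p = 0.0497 and 0.0492).

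Same-numbered mice of the 2 groups did not deviate together (correlations 0.03, -0.07 and 0.00, none of them the highest of its mouse). With so few mice, these correlations cannot show whether any of them shared litters or handling. With the mouse numbers as a replicate block, 809 genes passed, Coq10b had a log2 fold change of -0.94, Coq10a turned to 0.00078, and Mvk lost its call (edgeR, Benjamini-Hochberg adjusted p = 0.0751). Standard errors of 0.05 to 0.13 for members limit what could be seen in the low genes.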
